A study of Saccharomyces cerevisiae with 24 samples.

Results

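The response of a yap1 deletion strain of Saccharomyces cerevisiae to a mild dose of hydrogen peroxide was set against the same response of wild type cells. Of the 24 two-colour arrays of the series, 8 entered the comparison: the 4 arrays titled for the yap1 deletion at 0.1 mM H2O2 and the 4 titled for wild type yeast at that dose. Of 6251 open reading frames (ORFs) in the table, 5617 had values on all 8 arrays and were tested. The study asked how cells adapt to peroxide, with a mild pretreatment that raises survival of a later high dose, and it profiled Yap1 as one candidate regulator of that pretreatment. Both strains were haploid BY4741 derivatives grown in rich medium (YPD) and were exposed to 0.1 mM H2O2, for 45 min by the study's description of the pretreatment (its account of the expression cultures can be read as a longer exposure), and each array set poly(A) RNA of treated cells against that of untreated cells. The deletion strain came from the systematic deletion collection, is 1 clonal line and was not complemented. The labels call the second channel of the yap1 arrays untreated without naming its strain. The study's text describes the yap1 profiling as set against wild type cells, which could mean that channel or the response used for comparison. The channel is read here as untreated yap1 deletion RNA. Had it been wild type RNA, the ratios of the deletion strain would hold the strain's own differences as well as the treatment.

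Yap1 is a transcription factor of the bZIP class that collects in the nucleus when peroxide oxidizes its cysteines, with the peroxidase Hyr1 (Gpx3) as the sensor. It switches on genes for thioredoxins, peroxiredoxins, glutathione synthesis and drug efflux, and deletion strains are known to be sensitive to peroxide. Other stress regulators act beside it: Skn7 shares many of its targets, Msn2 and Msn4 drive the general stress response, Hsf1 drives chaperones and Rpn4 drives proteasome genes.

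All values below are log2 ratios of treated to untreated RNA in 1 strain, or the difference of the mean ratios, yap1 deletion minus wild type, with the standard error (SE) of the fit over 4 arrays a strain. Adjusted p-values come from limma with Benjamini-Hochberg adjustment over the 5617 ORFs, and an ORF was called where the adjusted p was under 0.05. Treated RNA was in Cy5 on 2 of the 4 arrays of each strain and in Cy3 on the other two, and the fit held 1 dye term per ORF shared by both strains. Across ORFs, the treatment component of the log2 ratios had an SD of 0.362 in the yap1 deletion and 0.143 in wild type cells, and the dye component one of 0.246 in the yap1 deletion and 0.36 in wild type cells. Arrays of opposite dye correlated positively across ORFs in the yap1 deletion (r between 0.26 and 0.44) and negatively in wild type cells (r between -0.76 and -0.65). The part that followed the dye was thus the larger one in wild type cells. In each strain replicates 1 and 2 shared 1 dye orientation and replicates 3 and 4 the other. A dye effect therefore cannot be told apart from a difference between these pairs, here and wherever arrays are said to split by dye. The balanced layout leaves the difference between strains free of a dye effect that both share. The yap1 arrays were also brighter, with median intensities of 1196 to 1224 against 515 to 521 on the wild type arrays, and the part of this in the results was not tested.

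The deleted gene had no value on any yap1 array, while its wild type intensity in untreated cells was between 1294 and 2258. In all, 631 ORFs had no value on the yap1 arrays. Of the 615 of these that were measured in wild type cells, 603 were in the dimmest 25% by wild type intensity and 8 in the brightest 10%. YAP1, at the 80.9th percentile, was 1 of only 4 in between, and the other three (YLR030W, YLR416C and YMR135W-A, named after their values were seen) had percentiles of 26.0, 28.8 and 32.1. Genes of the MATa mating type were bright in both strains, with STE2, MFA1 and MFA2 at a percentile of untreated intensity of at least 91.2 on all 8 arrays, and BY4741 is a MATa strain. HIS3, LEU2 and URA3, which BY4741 lacks, had wild type intensities of 30.97 to 320.5 and serve as a level of no transcript. Of the 648 ORFs called higher below, 178 had a wild type signal no brighter than these absent genes on at least 1 array and 3 on all 4, and of the 551 called lower 71 and 4, so for these the wild type response was measured on fewer arrays or not at all.

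A mild dose of peroxide moved many more genes in the yap1 deletion than in wild type cells. In the yap1 deletion 996 ORFs rose (17.7% of those tested) and 1189 fell (21.2%), whereas in wild type cells 34 rose (0.605%) and 18 fell (0.32%). The difference between strains was called for 1199 ORFs, of which 648 were higher in the deletion (11.5%) and 551 were lower (9.81%). The large differences were mostly upward, with 86 called ORFs at least 1 log2 unit higher and 13 at least 1 unit lower. The median difference over all ORFs was -0.04. With a dye term for each strain in place of a shared one, the responding ORFs numbered 3699 in the yap1 deletion and 1225 in wild type cells, and 2930 differences were called, 1295 higher and 1635 lower. All 1199 had the same sign of difference within each dye orientation. This follows from the call and is no support for it, since a difference that reverses with the dye enters the residual of the fit. For 684 of the 1199 the arrays of the strains did not overlap. In the whole table, the 4 yap1 arrays were all above the 4 wild type arrays for 482 ORFs (8.58%) and all below for 341 (6.07%). The wild type count rests on every array of that strain, since without any 1 of them it fell to between 10 and 20 ORFs. The count of differences was 1.5 times lower or more without yap1 deletion replicate 4 (735 ORFs) or without wild type replicate 1, 2, 3 or 4 (738, 727, 793 and 784).

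**Figure D1:**
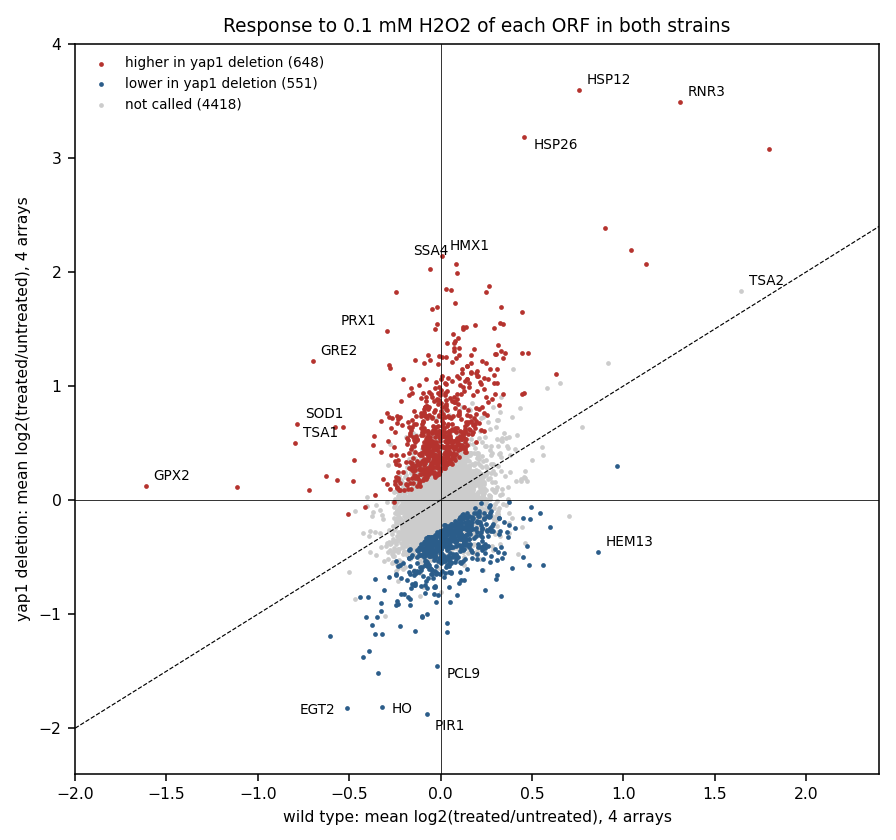
Mean log2 ratio of treated to untreated RNA of each of 5617 ORFs in the yap1 deletion (vertical axis) against wild type cells (horizontal axis), 4 arrays a strain, with the dashed line marking equal responses. The cloud is taller than it is wide, with HSP12, HSP26 and RNR3 far above the line and PIR1, HO, PCL9 and EGT2 far below it.

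Most called differences came with a response of the deletion strain. Of the 648 higher ORFs, 615 rose in the yap1 deletion, and of the 551 lower ORFs, 498 fell in it. For 7 ORFs the difference was called because wild type cells fell while the deletion's own response was not called: GPX2, GSH1, HSC82, CYC1, DAN1, BDF2 and YLR108C (named after their values were seen). The difference of CYC1 lost its call without any 1 array other than yap1 deletion replicate 2 (adjusted p up to 0.0968). Both responses were called with opposite signs for 10 ORFs, and 4 of these encode proteins of peroxide and superoxide defence or reductases, TSA1, SOD1, SOD2 and GRE2.

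No gene on a list of known Yap1 targets had a treated-to-untreated ratio that was called lower in the yap1 deletion. Of the 21 genes on the list 17 could be tested, and 7 of them were higher in the yap1 deletion and none lower, with a median difference of 0.20 beside -0.04 over all ORFs. The ratios say nothing of the level before treatment. Untreated intensity was lower on the yap1 arrays, although those were brighter, only for GPX2, GRE2, TRX2 and TSA1. For every other target tested it was higher on the yap1 arrays. The mean untreated intensity was 422 in the yap1 deletion and 966 in wild type cells for GPX2, and 393 in the yap1 deletion and 745 in wild type cells for GRE2. It was 7624 in the yap1 deletion and 12550 in wild type cells for TRX2, and 10440 in the yap1 deletion and 15670 in wild type cells for TSA1. Among the targets with the other direction were PRX1 (1155 in the yap1 deletion and 433 in wild type cells) and GSH1 (1164 in the yap1 deletion and 675 in wild type cells). TRR1 (7957 in the yap1 deletion and 4011 in wild type cells) was another. The arrays of the strains were normalized separately, and these levels were not tested. GRE2, a methylglyoxal reductase, had log2 ratios of 1.25, 1.25, 1.10 and 1.27 on the yap1 arrays and of -0.86, -1.28, -0.36 and -0.31 on the wild type arrays. Every yap1 array was above and every wild type array below 0, and the difference was 1.92 (SE 0.15, adjusted p = 0.000196), a 3.78-fold difference in the response. PRX1, the mitochondrial peroxiredoxin, had ratios of 1.39, 1.54, 1.44 and 1.55 in the yap1 deletion and of -0.49, -0.74, -0.02 and 0.08 in wild type cells. It rose in the deletion only by its own test, and the strains differed by 1.77 (SE 0.15, adjusted p = 0.000216).

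For other targets the difference lay partly or wholly in a fall of wild type cells. GPX2, a glutathione peroxidase, stood at 0.06, 0.14, 0.24 and 0.05 on the yap1 arrays and at -1.32, -1.45, -1.82 and -1.88 on the wild type arrays, the largest fall in wild type cells among the 18 called. Its difference of 1.74 (SE 0.11, adjusted p = 7.27e-05) therefore came with no called response of the deletion. TSA1, the main cytosolic peroxiredoxin, gave 0.61, 0.71, 0.32 and 0.35 in the yap1 deletion and -1.23, -1.03, -0.47 and -0.45 in wild type cells. It rose in the deletion and fell in wild type cells, and the strains differed by 1.29 (SE 0.10, adjusted p = 0.000147). TRX2, a cytosolic thioredoxin whose induction by peroxide is the classic readout of Yap1, had ratios of 1.22, 1.29, 0.83 and 0.92 in the yap1 deletion and of -0.93, -0.59, 0.20 and 0.49 in wild type cells. All yap1 arrays were above all wild type arrays (difference 1.27, SE 0.16, adjusted p = 0.00154), and the wild type arrays split by dye. GSH1, which catalyses the first step of glutathione synthesis, was higher by 0.81 (SE 0.08, adjusted p = 0.000404), with a mean of 0.09 in the deletion and a fall to -0.72 in wild type cells. YCF1, a vacuolar glutathione conjugate pump, differed by 0.23 (adjusted p = 0.0400), a call that was lost without any 1 of the 8 arrays (adjusted p between 0.0736 and 0.123).

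The other 10 targets were not called. TSA2, the stress-inducible peroxiredoxin, had ratios of 1.90, 1.92, 1.68 and 1.85 in the yap1 deletion and of 0.91, 1.13, 2.10 and 2.42 in wild type cells, so it rose in both strains and the values overlapped (difference 0.19, SE 0.21, adjusted p = 0.560). ECM4, a glutathione transferase, was at 1.15 in the yap1 deletion and 0.40 in wild type cells and just missed the threshold (difference 0.75, adjusted p = 0.0534). The thioredoxin reductase TRR1 (-0.11), the cytochrome c peroxidase CCP1 (-0.08), the glutathione synthetase GSH2 (0.04), the glutathione reductase GLR1 (0.20) and the glutathione transferase GTT2 (-0.28) were not called either, nor were the old yellow enzyme OYE3 (0.04) and the efflux transporters ATR1 (0.03) and FLR1 (0.08). CCP1 and TRR1 fell in the yap1 deletion by its own test, to means of -0.32 and -0.38. For AHP1, SRX1 and FRM2 the yap1 arrays gave no value. AHP1, an alkyl hydroperoxide reductase, was at the 99.4th percentile of intensity in wild type cells, and its ratios there were -1.88, -1.52, -0.15 and 0.09.

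**Figure D2:**
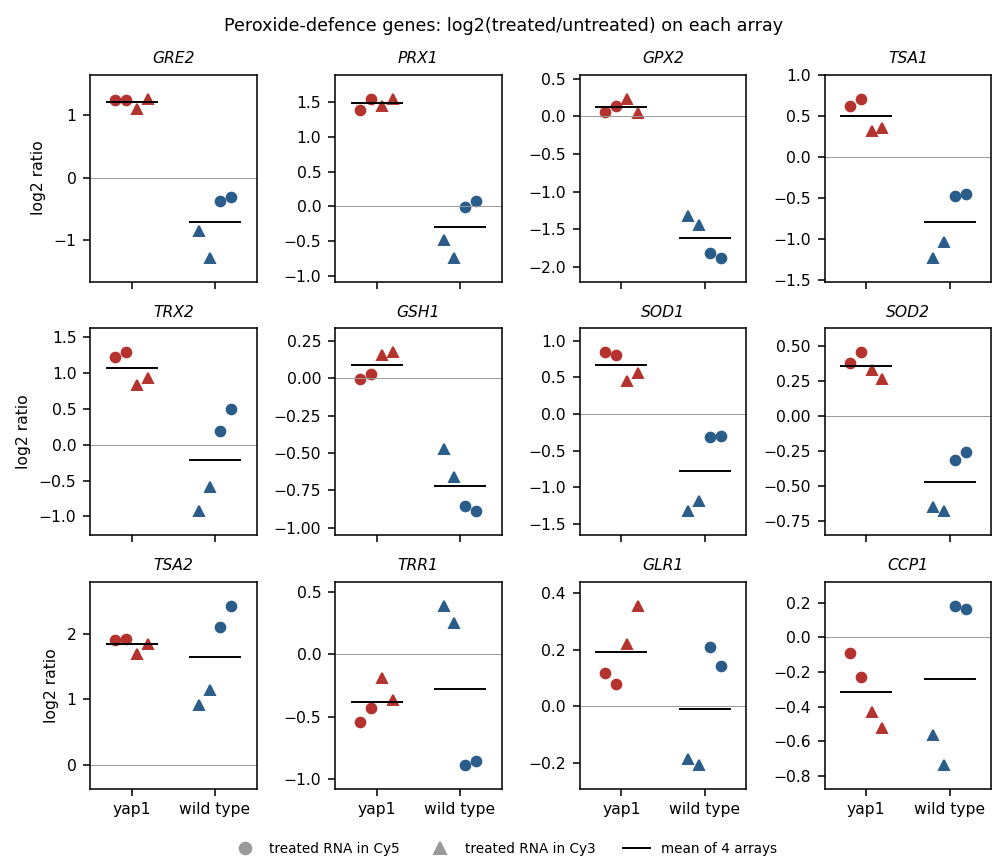
Log2 ratio of treated to untreated RNA of 12 peroxide-defence genes on each array, yap1 deletion left (red) and wild type right (blue), with circles for treated RNA in Cy5, triangles for treated RNA in Cy3 and bars for the mean of 4 arrays. The strains separate for GRE2, PRX1, GPX2, TSA1, TRX2, GSH1, SOD1 and SOD2 and overlap for TSA2, TRR1, GLR1 and CCP1, and the wild type points of several genes split by dye.

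The wider antioxidant lists share members with the Yap1 targets. In the thioredoxin system 6 of 11 tested members were higher and none lower (median difference 0.41), and in the glutathione system 9 of 17 were higher and none lower (median 0.30). Without the Yap1 targets, 3 of 6 in the thioredoxin system and 6 of 10 in the glutathione system were higher, beside 11.5% over all ORFs. GRX1, a glutaredoxin, rose in the yap1 deletion and was higher by 0.95 (SE 0.09, adjusted p = 0.000404). SOD1, the copper-zinc superoxide dismutase, had ratios of 0.84, 0.81, 0.45 and 0.56 in the yap1 deletion and of -1.33, -1.18, -0.32 and -0.31 in wild type cells. The ranges did not overlap and lay on opposite sides of 0 (difference 1.45, SE 0.13, adjusted p = 0.000348). SOD2, the mitochondrial manganese enzyme, was higher by 0.83 and the cytosolic catalase CTT1 by 0.67, whereas the peroxisomal catalase CTA1 differed by -0.04 and was not called. Of 18 tested quinone, aldehyde and ketone reductases 9 were higher, among them the glycerol dehydrogenase GCY1 (1.39) and the aldose reductase GRE3 (0.92). In the pentose phosphate pathway, the main source of NADPH for thioredoxins and glutathione, 4 of 13 members were higher and 4 lower: the minor isozymes SOL4 (1.72) and NQM1 (1.38) were higher, whereas GND1 (-0.51), the major 6-phosphogluconate dehydrogenase, was lower. SOL4 was brighter than the absent genes on 1 wild type array and NQM1 and CTT1 on 2, so the sizes of these differences are uncertain.

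The general stress genes gave the largest differences of any list. Of 24 members, 21 were higher in the yap1 deletion and none lower, with a median difference of 1.06 and median responses of 1.26 in the yap1 deletion and 0.18 in wild type cells. HSP12, a small membrane-associated stress protein, had ratios of 3.08, 3.50, 3.91 and 3.91 in the yap1 deletion and of 0.90, 0.60, 0.69 and 0.84 in wild type cells. It rose in both strains, with no overlap, and its response was 7.17-fold larger in the deletion (difference 2.84, SE 0.16, adjusted p = 5.75e-05). The mean intensities behind these ratios were 39500 treated and 3259 untreated on the yap1 arrays and 494 treated and 293 untreated on the wild type arrays. The ratio 3.91 is the ceiling that the authors' normalization gave to the yap1 arrays, so the largest responses there are limited by it. HSP26, a small heat shock protein, stood at 2.87, 2.87, 3.50 and 3.50 in the yap1 deletion and at 0.21, -0.28, 0.92 and 0.98 in wild type cells (difference 2.73, SE 0.30, adjusted p = 0.000727). ALD3, a cytosolic aldehyde dehydrogenase, was higher by 2.08 and TFS1, an inhibitor of carboxypeptidase Y, by 1.61. Enzymes of the reserve carbohydrates trehalose and glycogen had 11 of 17 members higher and 1 lower, with PGM2, NTH1 and GDB1 higher by 1.17, 0.99 and 0.92.

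Many genes of protein folding and destruction were higher. Among chaperones 16 of 23 were higher and none lower, with a median difference of 0.71, and all 23 differences were above 0. SSA4, the stress-inducible cytosolic Hsp70, had ratios of 1.74, 1.96, 2.41 and 2.17 in the yap1 deletion and of 0.15, 0.18, -0.02 and 0.02 in wild type cells. The deletion strain rose and wild type cells stayed near 0 (difference 1.98, SE 0.10, adjusted p = 5.75e-05). BTN2, a sorter of misfolded proteins, was higher by 2.07, HSP82, an Hsp90, by 1.43 and HSP78, a mitochondrial disaggregase, by 1.15. The mitochondrial chaperones SSC1 (0.08), HSP60 (0.11) and HSP10 (0.16) were not called.

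The proteasome was the most uniform list: 30 of its 32 subunits were higher, none was lower, and all 32 rose in the yap1 deletion while none was called in wild type cells. The median response was 0.65 in the yap1 deletion and -0.10 in wild type cells. PRE1, a subunit of the catalytic core, had ratios of 0.61, 0.79, 0.97 and 1.09 in the yap1 deletion and of -0.04, -0.01, -0.14 and -0.13 in wild type cells. The groups lay apart on all arrays (difference 0.95, SE 0.08, adjusted p = 0.000339), and RPN12 and RPT6 of the regulatory particle were higher by 0.87 and 0.86. The 2 subunits that were not called were RPN11 (0.75) and RPN10 (0.23), named after their values were seen. Ubiquitin and its delivery factors had 11 of 13 members higher and none lower. UBI4, the polyubiquitin gene, had ratios of 1.85, 2.17, 1.90 and 2.04 in the yap1 deletion and of 0.73, -0.03, -0.21 and -0.15 in wild type cells (difference 1.90, adjusted p = 0.000447), and UFD1 and NPL4, partners of the Cdc48 segregase, were higher by 1.15 and 0.87. Vacuolar proteases and autophagy genes had 8 of 15 members higher, with ATG8, the autophagosome marker, at 1.26, APE1 at 1.04 and the kinase ATG1 at 1.04.

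**Figure D3:**
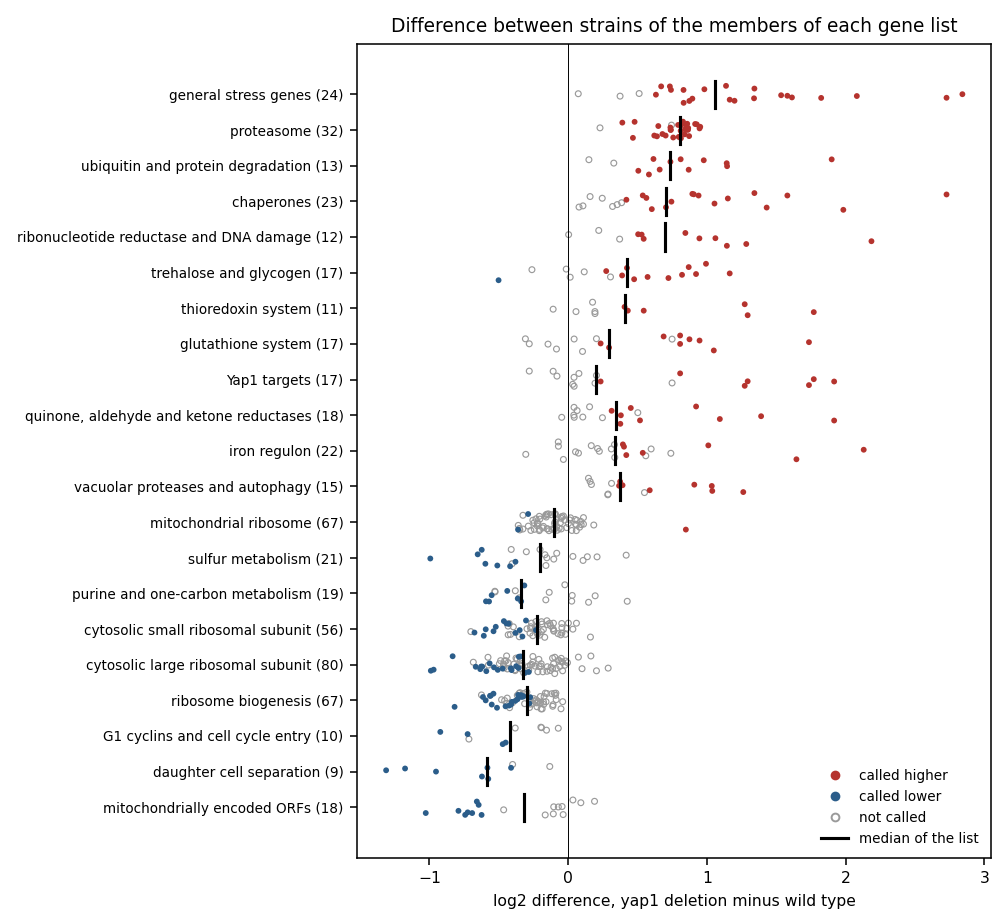
Log2 difference, yap1 deletion minus wild type (horizontal axis), of every tested member of 21 gene lists, with the number tested in brackets, red for called higher, blue for called lower, open circles for not called and black bars for the list's median. The stress, proteasome, ubiquitin and chaperone lists lie to the right of 0, while every ribosome biogenesis and daughter cell separation gene lies to the left.

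Ribonucleotide reductase and DNA damage genes were mostly higher in the yap1 deletion. Of 12 members 9 were higher and none lower (median difference 0.70), 11 rose in the yap1 deletion and 4 rose in wild type cells. RNR3, the damage-inducible large subunit, had ratios of 3.91, 3.91, 3.08 and 3.08 in the yap1 deletion and of 0.61, 0.10, 2.42 and 2.10 in wild type cells. In both strains the arrays with treated RNA in Cy5 were the higher ones, and the strains did not overlap (difference 2.19, SE 0.22, adjusted p = 0.000510). RAD54, of recombinational repair, was higher by 0.85 and the other large subunit, RNR1, by 0.54.

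Genes of the iron regulon were higher only in part. Of 22 members 7 were higher and none lower (median difference 0.34). HMX1, the heme oxygenase, had ratios of 2.41, 2.21, 1.74 and 2.21 in the yap1 deletion and of 0.05, 0.03, -0.04 and -0.02 in wild type cells. The deletion strain rose on every array. The difference was 2.13 (SE 0.13, adjusted p = 7.27e-05), but the wild type intensities averaged 133 treated and 132 untreated and were above those of the absent genes on 2 of 4 arrays, so the ratios near 0 do not show a lack of response. FIT2, a cell wall mannoprotein that holds siderophores, was higher by 1.65 and the siderophore transporter ARN2 by 1.01, whereas the high-affinity uptake pair FET3 (-0.03) and FTR1 (-0.30) was not called.

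Members of the hypoxic list went both ways, with 4 of 13 higher and 4 lower. The list is of genes that the heme-dependent repressor Rox1 holds down in air, but it also includes OLE1 and the repressor's own gene. ROX1 is among the members called higher. HEM13, a heme synthesis enzyme and a known Rox1 target, had ratios of -0.19, -0.56, -0.55 and -0.53 in the yap1 deletion and of 0.79, 0.58, 1.06 and 1.01 in wild type cells. It fell in the deletion and rose in wild type cells, with a difference of -1.32 (SE 0.10, adjusted p = 0.000186). CYC7, the hypoxic cytochrome c, was higher by 0.82. ROX1 itself gave 0.97, 0.60, -0.42 and -0.31 on the yap1 arrays and -1.57, -1.57, 0.43 and 0.21 on the wild type arrays. It followed the dye in both strains, overlapped between them, and was called higher (0.84, SE 0.16, adjusted p = 0.00950) with neither strain's own response called. Its call was lost when the dye term was left out (adjusted p = 0.538).

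A minority of the lipid genes was called, mostly lower. OLE1, the fatty acid desaturase controlled by Mga2, rose in both strains, with means of 1.20 in the yap1 deletion and 0.91 in wild type cells, and the difference of 0.29 was not called. Of 14 genes of fatty acid synthesis 1 was higher and 3 lower (7.14% and 21.4%, beside 11.5% and 9.81% over all ORFs; median difference -0.30), with FAS2, a fatty acid synthase subunit, at -0.69 and ELO2, an elongase, at -0.49. Of 23 ergosterol genes 1 was higher and 2 lower (4.35% and 8.7%), both below the shares over all ORFs. ERG11, the lanosterol demethylase, had a mean of -0.41 in the yap1 deletion and of 0.33 in wild type cells (difference -0.75, SE 0.14, adjusted p = 0.00823). Of the 27 Mga2 targets listed by the study from the literature, 8 were lower (29.6%) and none higher (median difference -0.24), among them URA7, a CTP synthase, at -0.84 and the ceramide synthase subunit LAC1 at -0.56.

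A minority of the genes for making ribosomes were called lower, by small amounts. All 67 ribosome biogenesis genes had a difference below 0, and 22 of them were called lower and none higher (median -0.30). By the strain's own test 52 of the 67 fell in the yap1 deletion and none was called in wild type cells. The list's median followed the dye within each strain and overlapped between them, at -0.48, -0.63, -0.16 and -0.04 on the yap1 arrays and 0.26, 0.34, -0.32 and -0.33 on the wild type arrays, and the arrays of the strains did not overlap for 10 of the 67 genes. HAS1, an RNA helicase of ribosome assembly, had ratios of -0.44, -0.70, -0.44 and -0.43 in the yap1 deletion and of 0.11, 0.29, -0.04 and -0.11 in wild type cells (difference -0.56, SE 0.09, adjusted p = 0.00388). The helicases DBP8 (-0.82) and DBP3 (-0.54) were lower too, calls that were lost without the dye term (adjusted p = 0.131 and 0.0736). The arrays of the strains overlapped for DBP8. On the RNA polymerase I list 4 of 8 genes were lower. Of the ribosomal protein genes, 20 of 80 in the large subunit and 13 of 56 in the small subunit were lower and none was higher, with medians of -0.33 and -0.23. RPL7B had ratios of -1.33, -1.44, 0.27 and 0.11 in the yap1 deletion and of 1.40, 1.19, -0.66 and -0.38 in wild type cells. Each strain's arrays split by dye and the strains overlapped, so the call (difference -0.99, SE 0.10, adjusted p = 0.000573) rests on the dye term, and without it the adjusted p was 0.489. Many ribosomal proteins have 2 near-identical gene copies whose probes may share signal, as may those of HSP82 and HSC82 or TSA1 and TSA2. Of the mitochondrial ribosomal protein genes 1 of 67 was higher and 2 were lower (1.49% and 2.99%), below the shares of 11.5% and 9.81% over all ORFs.

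Most genes of daughter cell separation and some G1 cyclins were lower in the deletion. Of 9 genes of daughter cell separation, which are expressed as cells leave mitosis, 7 were lower and none higher (median difference -0.58), and all 9 fell in the yap1 deletion. EGT2, a glycosylated cell wall protein, had ratios of -1.39, -1.70, -2.11 and -2.11 in the yap1 deletion and of -1.05, -0.74, -0.10 and -0.17 in wild type cells. It fell in both strains without overlap (difference -1.31, SE 0.11, adjusted p = 0.000196), and -2.11 is the floor of the normalized yap1 arrays. The glucanase DSE4 and the daughter-specific repressor ASH1 were lower by 1.17 and 0.95 log2 units. Among G1 cyclins and related genes 4 of 10 were lower and none higher, and all 10 fell in the yap1 deletion. CLN2, a G1 cyclin, had ratios of -1.35, -1.32, -0.54 and -0.89 in the yap1 deletion and of 0.22, 0.16, -0.32 and -0.47 in wild type cells, with no overlap (difference -0.92, SE 0.09, adjusted p = 0.000502). PCL9, a cyclin of the Pho85 kinase, differed by -1.44, and HO, the mating-type endonuclease, fell to a mean of -1.82 in the yap1 deletion, against -0.32 in wild type cells, where its response was not called. Both are expressed periodically in the cell cycle. Of 10 histone genes 1 was lower, a share near the 9.81% over all ORFs. This was HTB2 (-0.62), a call lost without yap1 deletion replicate 2, 3 or 4 or wild type replicate 1 or 2 (adjusted p up to 0.0742), and 8 of the 10 fell in the yap1 deletion by its own test.

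The lowest difference of all was that of PIR1, an O-glycosylated cell wall protein. It had ratios of -1.38, -2.11, -2.01 and -2.01 in the yap1 deletion and of 0.05, 0.08, -0.19 and -0.23 in wild type cells. The yap1 arrays all lay more than 1 unit below the wild type arrays (difference -1.80, SE 0.17, adjusted p = 0.000404). PST1, another cell wall protein, was lower by 1.12 log2 units. PHO3, an acid phosphatase, and ATO3, a putative ammonium exporter, were lower by 1.17 and 1.05.

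**Figure D4:**
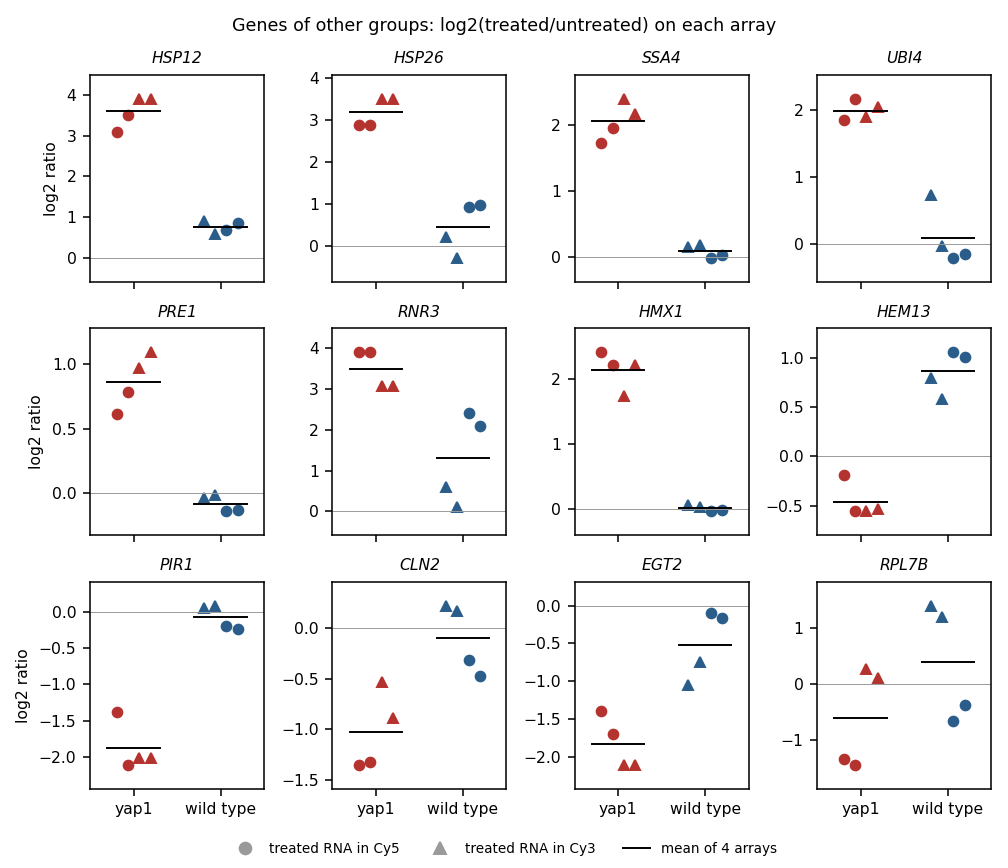
Log2 ratio of treated to untreated RNA of 12 genes of the other groups on each array, yap1 deletion left (red) and wild type right (blue), with circles for treated RNA in Cy5, triangles for treated RNA in Cy3 and bars for the mean of 4 arrays. The strains separate for every gene shown except RPL7B, whose points split by dye within each strain.

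ORFs encoded in the mitochondrial genome were lower in part. Of 18 tested 8 were lower and none higher, with a median difference of -0.31. The arrays were given poly(A)-selected RNA, and how far that selection passes mitochondrial transcripts was not tested. The list's median split by dye within each strain and overlapped between them. It was -0.94, -0.97, 0.34 and -0.10 on the yap1 arrays and 0.54, 0.36, -0.36 and -0.38 on the wild type arrays. The arrays of the strains did not overlap for 2 of the 18 ORFs. COX1, a subunit of cytochrome c oxidase, had ratios of -1.22, -1.30, -0.16 and -0.46 in the yap1 deletion and of 0.77, 0.43, -0.11 and -0.13 in wild type cells. The strains did not overlap, although their nearest arrays almost met and those of the yap1 deletion split by dye (difference -1.03, SE 0.11, adjusted p = 0.000660). The other called members were the ATP synthase subunits ATP8 and ATP6, of which ATP8 was no brighter than the absent genes on any wild type array, so that its response there was not measured, and ORFs encoded in COX1 introns, which are not independent of COX1. The nuclear genes of the respiratory chain and ATP synthase showed 2 of 34 higher (5.88%, below the 11.5% over all ORFs) and none lower.

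Among 22 tested regulators of redox and stress responses 5 were higher and none lower. HSF1, the heat shock factor, was higher by 0.65 (SE 0.15, adjusted p = 0.0208), with a mean of 0.65 in the yap1 deletion and 0.01 in wild type cells. RPN4, the proteasome gene activator, was higher by 0.56 (adjusted p = 0.00801) and GCN4, the activator of amino acid synthesis, by 0.46 (adjusted p = 0.0150). The calls of HSF1 and GCN4 were lost without single arrays: HSF1 without yap1 deletion replicate 3 or 4 or without wild type replicate 1 or 2 (adjusted p up to 0.0638), and GCN4 without wild type replicate 1, where it just missed the threshold. SKN7 (-0.29), MSN2 (0.09), MSN4 (-0.11), MGA2 (-0.08) and YBP1 (-0.06), a partner of Yap1 in peroxide sensing, were not called. ACT1, actin, often used as a constant gene, was higher by 0.37 (SE 0.08, adjusted p = 0.0143), a call lost without wild type replicate 3 or 4 (adjusted p = 0.0505 and 0.0537).

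The wild type arrays were dimmer than the yap1 arrays, so the yap1 deletion was also set against the 4 arrays of an mga2 deletion strain given the same mild dose, which had median intensities of 1049 to 1074. In that comparison, fitted on all 24 arrays over 5554 ORFs, 486 ORFs were higher in the yap1 deletion (8.75%) and 279 lower (5.02%). It shares the yap1 arrays with the comparison above and is no independent support for it. Stress and proteasome genes were higher against the mga2 deletion as well, with 21 of 24 general stress genes, 28 of 32 proteasome subunits, 17 of 23 chaperones and 9 of 12 ribonucleotide reductase and DNA damage genes called. The median proteasome response was 0.65 in the yap1 deletion, -0.09 in the mga2 deletion and -0.10 in wild type cells. HSP12 had means of 3.60 in the yap1 deletion, 0.53 in the mga2 deletion and 0.76 in wild type cells.

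Of the known Yap1 targets 3 of 17 were higher against the mga2 deletion and none lower. This count cannot be set directly against that from the 8 arrays. A fit on all 24 arrays called 896 differences from wild type in place of 1199. The SE was 0.27 for GPX2 and 0.20 for SOD1 against the mga2 deletion, and 0.11 and 0.13 against wild type cells. GRE2 and PRX1 were higher by 1.34 (adjusted p = 5.06e-05) and 1.30 (adjusted p = 4.63e-05). GPX2 had means of 0.12 in the yap1 deletion, -0.24 in the mga2 deletion and -1.61 in wild type cells, and its difference from the mga2 deletion, 0.36, was not called (adjusted p = 0.435). TSA1, with 0.50 in the yap1 deletion, 0.21 in the mga2 deletion and -0.80 in wild type cells, was likewise not called against the mga2 deletion (0.29, adjusted p = 0.257), and neither was SOD1, with 0.67, 0.11 and -0.78 in that order (adjusted p = 0.0634). Ribosome biogenesis was lower for 5 of 67 genes against the mga2 deletion, a share not far above the 5.02% over all ORFs in that comparison. Daughter cell separation was lower for 8 of 9 genes.

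**Figure D5:**
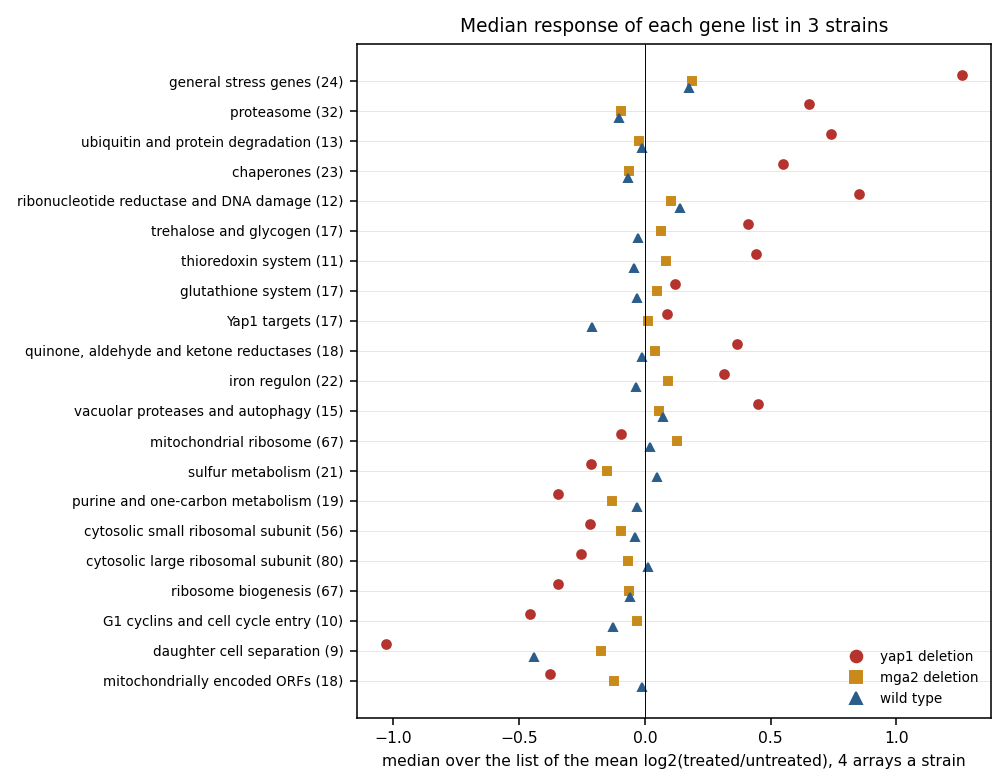
Median over each of 21 gene lists of the mean log2 ratio of treated to untreated RNA in the yap1 deletion (red circles), the mga2 deletion (orange squares) and wild type cells (blue triangles), 4 arrays a strain. The mga2 deletion and wild type medians lie near each other for the stress, proteasome and chaperone lists, with the yap1 deletion apart from both.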

How the data were processed

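The authors hybridized treated and untreated poly(A) RNA of 4 biological replicates a strain to 2-colour arrays, quantified them with GenePix 6.0, and applied background and quantile normalization. The deposited table holds the resulting intensity per ORF and channel. Ratios of 1 strain share a set of values, so the extremes are a common ceiling and floor. How spots were merged and what left values missing is not given in the sources used here. A second deposited table holds spot ratios whose scale, read from the values, is the natural log. It was used as an alternative.

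Here log2(treated/untreated) was fitted with limma 3.58.1 in R 4.3.3 (a mean per strain and 1 dye term, 5 residual and 3.31 prior degrees of freedom), with no filter on intensity, and adjusted over 5617 ORFs. The number of arrays limits the precision, and the median SE of a difference was 0.106. The fit was tested on simulated data. Names came from RefSeq (R64) for 5774 of 6251 ORFs. Genes named were the 12 highest and 12 lowest called, with arrays that did not overlap, all Yap1 targets, 3 members of every other list by lowest p, and 10 fixed genes; further members are named as counts required. Members and lists were chosen with earlier results of these data known. Lists got counts and medians, with no test. Of the study's target lists only that of Mga2 was held whole and used.

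Same-numbered arrays of the strains did not deviate together (residual correlations of 0.00362 and -0.0162), so the numbers were not taken as pairs. No column of another series was present.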

Additional observations from a re-analysis of the deposited data

Results flagged for a closer look

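The response itself differed between strains for 1199 ORFs by the limma contrast. Among the named genes, 14 of these had all arrays of each strain on opposite sides of 0. Higher in the yap1 deletion were GRE2 (1.92), GPX2 (1.74), SOD1 (1.45), TSA1 (1.29), PRE1 (0.948), MDH1 (0.846), SOD2 (0.827) and HIS5 (0.524). Lower were HEM13 (-1.32), PHO3 (-1.17), ATO3 (-1.05), ERG11 (-0.746), FAS2 (-0.693) and MET3 (-0.596). These are the differences of mean log2 ratios, yap1 deletion minus wild type. Both responses were called only for GRE2, SOD1, TSA1, SOD2 and HEM13. For GPX2 the response of the deletion was not called, and for the remaining genes that of wild type cells was not. Single arrays came as near 0 as -0.006 (MDH1, wild type replicate 1). Naming genes by lowest p or largest difference also favours this pattern.

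In 7 of 264 sets of 4 arrays, 1 array of a named gene stood apart from the other three by Dixon's criterion, which chance meets in about 1 in 20 sets. On the yap1 arrays these were GRE2, at 1.10 against 1.25 to 1.27 on the others, PIR1, at -1.38 against -2.11 to -2.01, and HEM13, at -0.188 against -0.556 to -0.531. HAS1, at -0.695 against -0.445 to -0.425, HTB2, at -0.277 against -1.05 to -0.919, and ACT1, at 0.449 against 0.326 to 0.342, were the others on yap1 arrays. On the wild type arrays ARG3 had 1 value of -0.379 against 0.0818 to 0.137.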

How the results depend on the processing

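The count of differences turned mainly on the dye term. With a dye term for each strain 2930 ORFs were called (1295 higher, 1635 lower), and with none 258 (209 higher, 49 lower), although the difference itself is the same in all 3 fits; the responses then had 3699 ORFs in the yap1 deletion and 1225 in wild type cells with a term for each strain. The replicate number as a block, which here also absorbs a dye term for each strain, gave 2882 (1270 higher, 1612 lower) and kept all 1199 calls. With all 24 arrays 338 ORFs were lower, and 99 ORFs (86 higher, 13 lower) had a difference of at least 1. Leaving out 1 array gave 727 to 1119 differences, 282 to 507 of them lower, and 10 to 20 responding ORFs in wild type cells. Without yap1 deletion replicate 4 the total was 735, and without wild type replicate 1, 2, 3 or 4 it was 738, 727, 793 and 784; the lower count also moved by over 1.5 times without yap1 deletion replicate 2 (353) or 3 (335). The deposited spot ratios gave 150 higher and 0 lower with limma, among 2687 spots at an unadjusted p under 0.05. With each array centred, an alternative chosen after seeing the data, they gave 140 (134 higher, 6 lower); the median difference was 0.37 before and 0.02 after centring. The cause of the lower counts in that table was not tested. No call changed sign under any setting fitted to the ORF table. Of 113 called named genes, 55 lost it under no alternative to that table, 46 of them run under all 17 and 9 left out by a filter on ORFs, and 29 lost it only without the dye term. Median centring, loess, common quantiles and both filters on ORFs left the count within 1.5 times. The dimmer wild type arrays and the ORFs without values on the yap1 arrays limit what low expression can show.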

Other observations

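Members of several metabolic groups also differed between the strains. Over all ORFs 11.5% were higher and 9.81% lower. Purine and one-carbon genes had 7 of 19 members lower in the yap1 deletion and none higher (median difference -0.34), with ADE1 and ADE6 of purine synthesis at -0.59 and -0.55, both calls lost with all 24 arrays, and IMD4, an IMP dehydrogenase, at -0.57. Sulfur genes had 7 of 21 lower and none higher (median -0.20). MMP1, the S-methylmethionine permease, had means of -0.69 in the yap1 deletion and 0.30 in wild type cells, and both responses were called. Its arrays split by dye and overlapped, at -0.19, -0.19, -1.27 and -1.12 in the yap1 deletion and -0.09, -0.21, 0.73 and 0.77 in wild type cells. The call of its difference was lost without the dye term (adjusted p = 0.164). MET3 and MET14 of sulfate assimilation differed by -0.60 and -0.62, calls that were lost with all 24 arrays (adjusted p = 0.103 and 0.131). Both high and low affinity zinc transporters, ZRT1 (-0.42) and ZRT2 (-0.34), were lower, the 2 calls among 11 zinc genes. The arrays of the strains overlapped for both, and both calls were lost without the dye term (adjusted p = 0.283 and 0.296). That of ZRT2 was also lost without yap1 deletion replicate 4 or wild type replicate 2 (adjusted p up to 0.0539).

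Genes for lysine, arginine, histidine and leucine synthesis had 8 of 20 members higher and 2 lower. The arginine genes ARG3 (1.27) and ARG4 (0.99) were higher, ARG3 with a wild type signal above that of genes absent from BY4741 on 2 of 4 arrays, and the 2 lower members were LEU1 (-0.47) and LEU9 (-0.34). In the citrate cycle and its feeding steps 4 of 14 were higher and 2 lower, with PYC1, a pyruvate carboxylase, at 0.92, MDH1, the mitochondrial malate dehydrogenase, at 0.85 and CIT2, the peroxisomal citrate synthase, at -0.39, also lost with all 24 arrays (adjusted p = 0.470). In glycolysis 2 of 12 were higher, TDH1 (0.84) and PGI1 (0.41), and 1 was lower, the hexokinase HXK2 (-0.36). These shares, 16.7% and 8.33%, are near the 11.5% and 9.81% over all ORFs. The call of HXK2 was lost under 11 of 17 alternatives, median centring and the omission of yap1 deletion replicate 1, 2 or 3 or wild type replicate 1, 3 or 4 among them. Of 13 drug export genes 3 were higher, PDR10 (0.38), YOR1 (0.45) and YCF1 (0.23). The call of PDR10 was lost with all 24 arrays (adjusted p = 0.0602), that of YOR1 without yap1 deletion replicate 2, 3 or 4 or wild type replicate 1 or 2 (adjusted p up to 0.0663), and that of YCF1 without any 1 array. The drug resistance regulator PDR1 was higher by 0.61 (adjusted p = 0.0368). PDR10, YOR1, PDR1, LEU1 and LEU9 were named after their values were seen.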
